A study of Mus musculus with 16 samples.

Results

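The integrated stress response genes described here are 10 mouse genes chosen by symbol: the transcription factors Atf3, Atf4, Atf5 and Ddit3, and the stress-induced genes Ddit4, Trib3, Asns, Chac1, Sesn2 and Slc7a11. All 10 were found among the 25905 genes listed in the authors' deposited table of retinal RNA-seq. The libraries came from the right retinas of wild type C57BL/6 males, labelled as 10 weeks old, the age at which the study states that the mice were flown, with 8 in the spaceflight group and 8 in the ground control group. Spaceflight mice lived on the International Space Station and were returned alive. Their eyes were taken after splashdown and transport, so not in flight and at an age above the labelled one. Ground control mice were kept on Earth in the same housing hardware on the same food bar diet. Each library was made from the dissected retina of a mouse, so a level is a sum over all cell types in the dissected tissue. Fewer cells of a type and less RNA per cell cannot be told apart.

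The measure of level used here was the authors' mean normalized count, which is the mean over all 16 libraries, both groups together, of read counts divided by size factors. It carries no SD, because the counts of the single libraries are deposited under laboratory codes that could not be paired with a mouse or a group. Values per mouse, depth per library and a comparison of spaceflight with ground control are therefore not analysed here. Whether neighbouring genes in the order of levels differ beyond the spread between mice was not tested.

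The integrated stress response is a control of protein synthesis that many cells share. Under amino acid shortage, unfolded protein in the endoplasmic reticulum, viral RNA or haem shortage, a kinase phosphorylates the initiation factor eIF2, which lowers translation in general while the mRNA of the transcription factor ATF4 is translated more. ATF4 then activates genes for amino acid supply, redox balance and growth control, and with CHOP, the product of Ddit3, genes that can lead to cell death. ATF4 and its partners of the C/EBP family bind a composite element known as the C/EBP-ATF response element, or CARE.

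The letters TGATGNAA, the core of that element, were searched on both strands of the RefSeq promoter windows of assembly GRCm38.p6, which run from 250 bases before to 50 bases after each annotated start site. They were present for 5 of the 10 genes, namely Atf3, Trib3, Asns, Chac1 and Slc7a11, and for 4.51% of the 27025 genes with a window. The stretches that hold them are printed to show where these letters lie, and whether ATF4 binds these sites was not tested. The list was chosen as ATF4 factors and targets, so the motif is not independent of the choice, and the count is a description. They are written on the strand of the gene from 5′ to 3′, and capitals mark the match, which reads TTNCATCA where it lies on the opposite strand.

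Slc7a11, chr3:50443645-50443687, minus strand: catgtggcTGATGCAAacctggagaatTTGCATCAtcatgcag
Asns, chr6:7693217-7693240, minus strand: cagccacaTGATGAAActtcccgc
Atf3, chr1:191183428-191183451, minus strand: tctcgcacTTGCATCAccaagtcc
Chac1, chr2:119351041-119351064, plus strand: ccctgccgTTGCATCActcctgcc
Trib3, chr2:152344031-152344054, minus strand: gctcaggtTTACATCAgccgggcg

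Slc7a11 was the only gene of the 10 with a pair of matches in its window, in opposite orientation, the first starting 66 bases and the second 47 bases before the start site. The matches of Asns, Atf3 and Chac1 began 23, 110 and 193 bases before the start site, and that of Trib3 began at base 15 after it, in the transcribed leader. Atf3, Chac1 and both sites of Slc7a11 carried the core TGATGCAA when read in the direction of the motif, Asns carried TGATGAAA and Trib3 carried TGATGTAA.

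Atf4, Atf5, Ddit3, Ddit4 and Sesn2 had no match in these windows, and Atf5 was searched in 2 windows. The absence says only that these letters are not in the windows searched. The full cyclic AMP response element TGACGTCA was found in 0 of the 10 genes and in 2.03% of all genes with a window. The antioxidant response element TGACNNNGC, bound by NRF2 with small MAF proteins, was found in 2 of the 10, Sesn2 and Asns, and in 14.0% of all genes. The endoplasmic reticulum stress element (ERSE, a CCAAT box and a CCACG separated by a fixed spacer) was found in 0 of the 10 and in 0.137% of all genes. TGACNNNGC and TGACGTCA share the first letters TGAC but differ at a later fixed letter, so no site can match both from the same base. TGATGNAA holds neither of them.

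**Figure D1:**
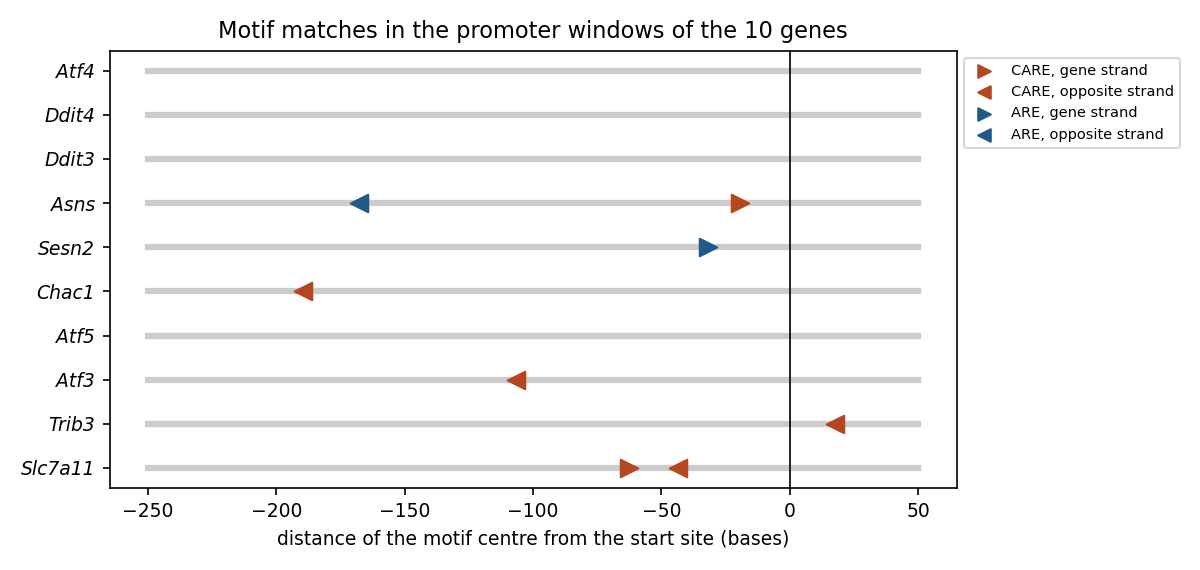
Position of CARE and antioxidant response element (ARE) matches in the promoter windows of the 10 genes, as the distance of the motif's centre from the annotated start site in bases. Grey bars are the windows and arrowheads give the strand of the match. The matches of 5 genes to the CARE core lie on both strands, and Slc7a11 has a facing pair.

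The transcription factors of the list were far apart in level. Atf4, whose product drives the response, had a mean normalized count of 1636. Ddit3, which encodes CHOP, had a mean normalized count of 305. Atf3, an early stress factor related to the AP-1 proteins, had a mean normalized count of 40.3. Atf5, a factor controlled at translation in a similar way to Atf4, had a mean normalized count of 39.8, and it was counted under 2 transcript accessions.

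Levels of different genes were compared after division by the length of the GENCODE vM21 transcript that matches the RefSeq accession of the count table. On this scale Atf4 was again highest, with a mean normalized count of 949 per 1000 bases of transcript, above 98.4% of the 19855 listed genes that had a length. Ddit3, with a short transcript of 890 bases, reached 343 per 1000 bases, so that Atf4 was 2.77 times as high. Atf3 stood at 20.3 per 1000 bases, and Atf4 was 46.7 times as high. The median for genes with a mean normalized count of 10 or more was 68.1 per 1000 bases, so Atf4 and Ddit3 lay above it and Atf3 below.

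Ddit4 and Sesn2 encode inhibitors of the growth-promoting kinase complex mTORC1. Ddit4 had a mean normalized count of 1147 and of 654 per 1000 bases, above 97.4% of genes with a length. It was second to Atf4 in the list. Sesn2 had a mean normalized count of 139 and of 40.1 per 1000 bases, so that Ddit4 was 16.3 times as high per length. The median of 68.1 per 1000 bases lay between these inhibitors of the same complex.

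Trib3 encodes a pseudokinase that binds ATF4 and CHOP and limits their activity. Its mean normalized count of 38.7, and its level per length was 19.1 per 1000 bases. Ddit3, which it restrains, stood at 343 per 1000 bases. Atf5, Atf3 and Trib3 followed each other near the bottom of the list, between 22.9 and 19.1 per 1000 bases.

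The remaining genes serve amino acid and glutathione supply. Asns, which makes asparagine from aspartate and glutamine, had a mean normalized count of 399 and of 200 per 1000 bases. Slc7a11, the light chain of the cystine and glutamate exchanger that supplies cysteine for glutathione, had a mean normalized count of 93.7. Its matched transcript is 9223 bases long, the longest of the 10, and per 1000 bases its level was 10.2, the lowest of the list. Chac1, an enzyme that breaks glutathione down, had a mean normalized count of 50.4 and of 30.8 per 1000 bases. The enzyme of asparagine synthesis was thus 19.6 times as high per length as the cystine carrier and 6.48 times as high as the glutathione-degrading enzyme.

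Over all 10 genes the mean normalized count had a median of 117 and the level per length a median of 35.5 per 1000 bases. By level per length the order was Atf4, Ddit4, Ddit3, Asns, Sesn2, Chac1, Atf5, Atf3, Trib3 and Slc7a11. Without division by length Slc7a11 moved from the last place to place 6, and 6 of the 10 genes changed place. The highest and lowest genes were 93.4 times apart per length. All 10 lay above the median level of the listed genes that had a length, 9.57 per 1000 bases. The median of 68.1 among genes with a mean normalized count of 10 or more was higher, and 4 of the 10 genes, Atf4, Ddit4, Ddit3 and Asns, were above it.

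**Figure D2:**
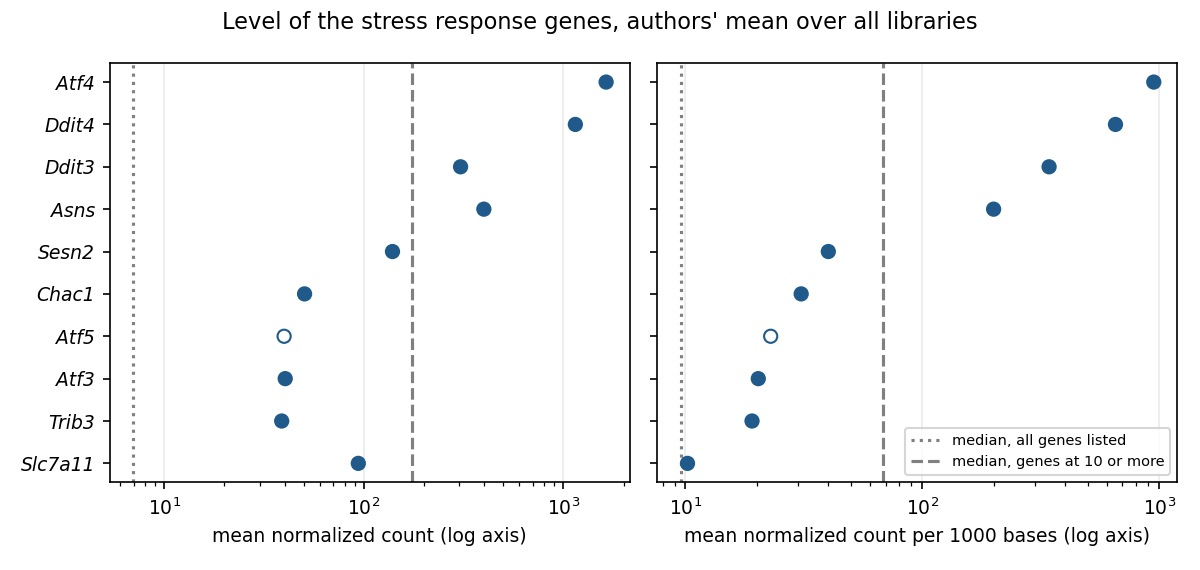
Level of the 10 genes as the authors' mean over all libraries, on the left as mean normalized count and on the right per 1000 bases of transcript, both on log axes, with 1 point per gene. Dotted and dashed lines are the medians of all genes listed and of genes with a mean normalized count of 10 or more, and the open point is Atf5, which has 2 accessions. Atf4, at 949 per 1000 bases, and Slc7a11, at 10.2, are the ends of the right panel.

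Atf5 differed from the other genes in how it was counted. The deposited count table has a row for each transcript accession rather than for each gene, and Atf5 has 2 rows, the mRNA NM_030693.2 and a second entry named only by a running number, while the other 9 genes have 1. Across the series, genes with an mRNA accession and 1 row had a median mean normalized count of 52.2 (16959 genes), those with 2 rows a median of 1.58 (2159 genes) and those with 3 or more rows a median of 1.47 (1007 genes). A mean normalized count of 10 or more was reached by 61.1%, 30.1% and 25.1% of them. Atf5, at 22.9 per 1000 bases against 949 for Atf4, belongs to the second class. Its mean normalized count of 39.8 was above the 75th percentile of the genes with 2 rows, 17.9. It was also close to the counts of Atf3, 40.3, and Trib3, 38.7, which have 1 row each. The part of the counting in the level of Atf5 was not tested. How the authors combined the rows of a gene is not given in the sources used here. The values of genes with several rows, such as Atf5, Eif2ak4, Eif2b4, Nars and Vegfa, may therefore understate the sum of their transcripts, which was not tested.

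**Figure D3:**
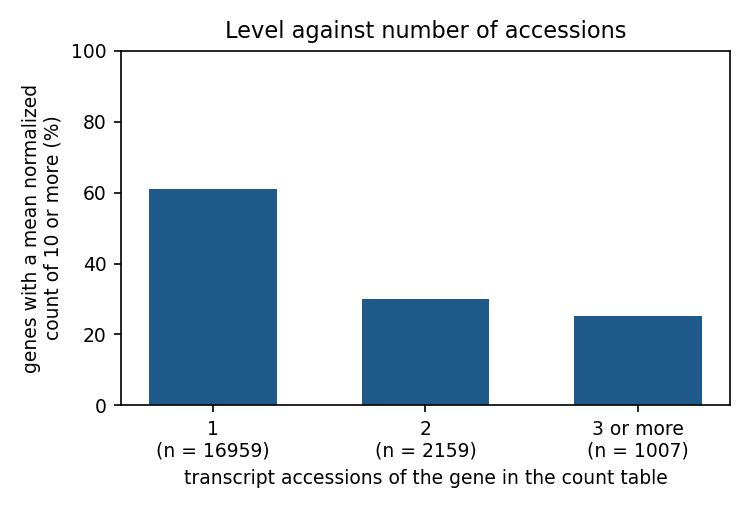
Percent of genes with a mean normalized count of 10 or more, by the number of transcript accessions that the gene has in the count table, for genes with at least 1 mRNA accession. Bars start at 0 and n is the number of genes. The share falls from 61.1% with 1 accession to 30.1% with 2, the class of Atf5.

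The leaders of the matched transcripts, the stretch before the annotated coding sequence, were read for upstream ATG triplets in any frame, since start codons in the leader are the known basis of the translational control of Atf4, Atf5 and Ddit3. Atf4 had 3 in a leader of 594 bases, Atf5 had 6 in 293 bases and Ddit3 had 2 in 186 bases. Asns also had 2, and Atf3, Sesn2 and Slc7a11 had 1 each. Trib3, Ddit4 and Chac1 had 0. In all, 7 of the 10 genes had at least 1 upstream ATG, against 47.6% of the 19855 genes with a matched coding transcript. Of the 62 further pathway genes described below, 27 had at least 1, or 43.5%. The leaders of the 10 were also longer, with a median of 225 bases against 147 bases for the 19855 genes and 180 for the 62. A longer leader holds more triplets of any kind.

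Upstream of ATF4, the 4 kinases that phosphorylate eIF2 sense different stresses. Eif2ak3, which encodes PERK, the sensor in the endoplasmic reticulum, was the highest of them, with a mean normalized count of 387 and of 85.7 per 1000 bases. Eif2ak1, the haem-regulated kinase, had 61.9 per 1000 bases, and Eif2ak2, the kinase activated by double-stranded RNA, had 12.6. Eif2ak4, which encodes GCN2, the sensor of uncharged tRNA, was at 1.84 per 1000 bases with 2 accession rows. All 4 kinases were below Atf4, Ddit4, Ddit3 and Asns per length.

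Of the subunits of eIF2, Eif2s1, whose product carries the phosphorylated serine, had a level of 129 per 1000 bases, Eif2s2 had 243 and Eif2s3x had 341. The exchange factor eIF2B, the target that phosphorylated eIF2 inhibits, had its highest subunit mRNA in Eif2b2, at 155 per 1000 bases. Eif2b3 and Eif2b4, with 2 and 3 accession rows, were at 9.61 and 0.899. Ppp1r15b, the constitutive partner of the phosphatase that reverses the modification, had 96.1 per 1000 bases. Ppp1r15a, its stress-induced counterpart and itself a target of the response, had 53.8.

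Further genes known as ATF4 targets were taken as a list of other members of the pathway, which with the kinases and the eIF2 machinery came to 62 genes. Of these, 49 had a mean normalized count of 10 or more and 4 were listed at 0. The median level per length was 61.5 per 1000 bases, and 0 of the 62 were above Atf4, 1 above Ddit4 and 5 above Ddit3. At the other end, 42 of the 62 were above Slc7a11. These counts include 11 genes with several accession rows, whose values may be understated. Sqstm1, an autophagy receptor, was the gene above Ddit4, at 681 per 1000 bases.

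The tRNA synthetases were among the higher groups of the list. Sars had 652 per 1000 bases, Gars had 338 and Aars had 317, and 9 of the 12 had a mean normalized count of 10 or more. Mars, Nars and Wars did not, and each has several accession rows. Nars is listed at 0, although every cell that makes protein needs an asparaginyl-tRNA synthetase.

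The amino acid transporters Slc7a5 and Slc38a2 had levels of 155 and 156 per 1000 bases. Slc3a2, the heavy chain with which the product of Slc7a11 pairs at the membrane, had 25.7 per 1000 bases with 2 accession rows, and was 2.52 times as high as Slc7a11 on this scale. Without division by length the order turned, with mean normalized counts of 59.4 for Slc3a2 and 93.7 for Slc7a11. Among the enzymes of serine and one-carbon metabolism, Shmt2 had 149 per 1000 bases, Psat1 had 109 and Psph had 86.5, while Phgdh and Mthfd2 had 44.1 and 41.0. Cbs and Cth, of the route from methionine to cysteine, were at 0.154 and 14.6, with 2 accession rows for Cbs.

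The genes for secreted proteins of the response included 2 listed at 0. Fgf21, a hormone released under metabolic stress, has 1 accession row and is listed at 0, and whether its mRNA is absent was not tested. Gdf15 and Adm2 had 2.03 and 2.40 per 1000 bases, and Stc2 had 8.04. Vegfa is listed at 0 with 6 accession rows, which, as for Nars, cannot be read as absence. Of the partners of ATF4, Cebpg had 61.1 per 1000 bases and Cebpb 13.7, and Nupr1 had 147.

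Of the 62 genes, 11 have several accession rows, of which 9 had a mean normalized count under 10. Among the 51 genes with 1 row this held for 4. Restricted to genes with 1 row, the median level per length was 86.5 per 1000 bases for the 62-gene list and 40.1 for the 9 stress response genes with 1 row. The CARE core was present in 12 of the 49 genes of the list that had a promoter window, or 24.5%, against 4.51% of all genes with a window. Among the 12 were the synthetases Aars, Gars, Iars, Tars and Yars, and Fgf21, Herpud1, Jdp2, Nupr1 and Vldlr. The list holds known ATF4 targets, so this count too is a description. The antioxidant response element was present in 14 of the 49, or 28.6%, against 14.0% of all genes.

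**Figure D4:**
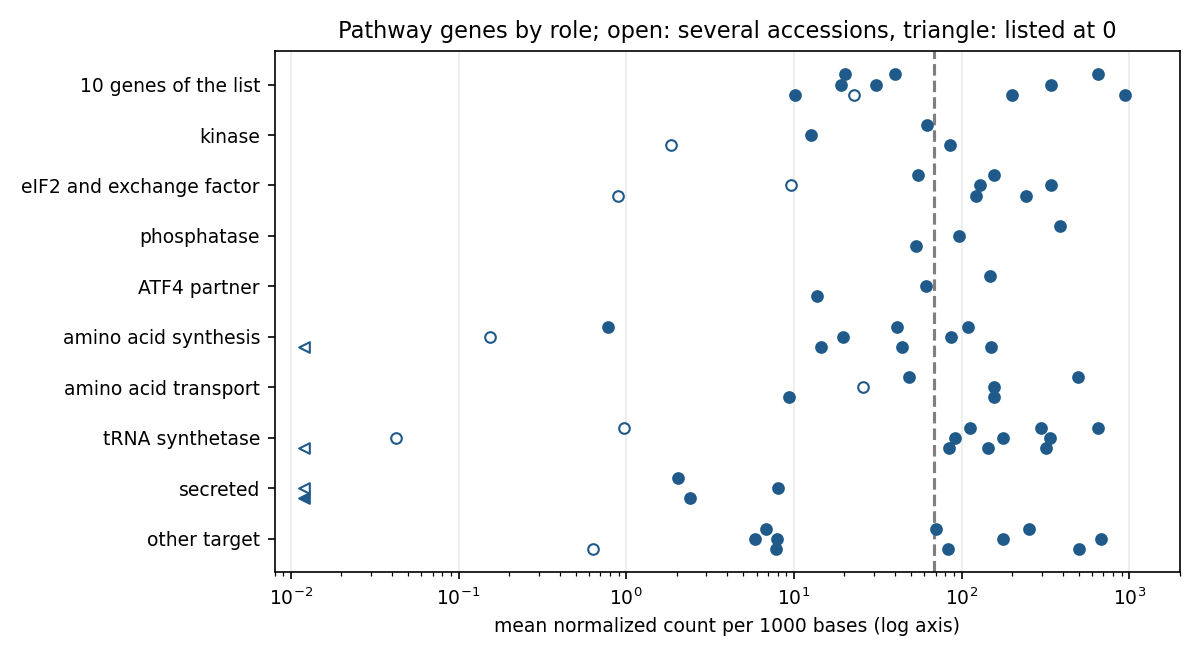
Level per 1000 bases of transcript, on a log axis, of the 10 genes (top row) and of the 62 further pathway genes by role, with 1 point per gene and small vertical offsets for legibility. Open points have several accessions, triangles at the left edge are genes listed at 0, and the dashed line is the median of genes with a mean normalized count of 10 or more. Atf4 lies to the right of all 62, and 11 of the 62 points are open.

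The tissue label was checked against marker genes. The rod genes Gnat1 and Pde6a, of the phototransduction cascade, had levels of 66356 and 5086 per 1000 bases, both above Atf4. Markers of cones, bipolar cells, amacrine cells and Müller glia with a listed value and 1 accession row had levels from 223 to 6252 per 1000 bases, and the ganglion cell genes Pou4f1 and Nefl had 104 and 887. Markers of neighbouring tissues were also found. The lens marker Cryaa had 709 per 1000 bases, and Ttr and Rpe65 of the pigment epithelium had 455 and 64.8. Whether these transcripts came from those tissues or from the retina was not tested. The other pigment epithelium marker, Best1, had only 1.31 per 1000 bases, and the other lens markers, Crygd and Bfsp1, had 74.7 and 41.6. The microglial markers had 10.4 to 35.5 per 1000 bases, a range that holds the levels of Chac1, Atf5, Atf3 and Trib3, and the part of any of these cell types in the level of the stress genes was not tested.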

How the data were processed

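Retinal RNA of 16 mice was sequenced in stranded libraries. Per the labels and the methods of the study, Trimmomatic was used to trim and TopHat2 to align the reads, on a mouse assembly older than the reference used here. The authors counted them with HTSeq per transcript accession and analysed them with DESeq2 1.22.2 in R 3.5.1. The signal value used here is deposited by the authors and gives, for each gene, size-factor-normalized counts averaged over the 16 libraries. The deposited table also holds the authors' log2 fold changes, standard errors, test statistics and p-values, which were not used.

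The 2 deposited count tables hold 32 columns named by a laboratory code that no label pairs with a sample, and these were left out. For this reason no test between the groups was made. Other text columns of the count table (RefSeq accession and symbol, deposited by the authors) gave 31616 accessions. Transcripts of GENCODE vM21 were matched by accession without its version, the longest where several matched, and averaged over the accessions of a gene. A length was found for 76.6% of genes listed, for 90.3% of those with a mean normalized count of 10 or more and for all 10 genes of interest. Positions were taken from the reference alone. Of the matched coding transcripts 99.8% had ATG at the annotated start.

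The genes, the pathway list and the markers were chosen with earlier results of these data known. By rule, each of the 10 genes was named and any gene of the pathway list could be, whatever its change. Of the markers, Tfap2a and Hbb-bs were not found in the table by symbol. Crygd and Bfsp1 of the lens had mean normalized counts of 45.8 and 98.7, Best1 of the pigment epithelium had 2.72, Cldn5 of endothelium had 51.1, Hba-a1 of blood had 0.213, and Acta1 and Myh4 of muscle had 8.94 and 7.20. The motif search and the percentiles were tested on simulated data, and the count of upstream ATG triplets on short fixed strings. The steps ran in Python 3.11.15 (pandas 2.3.3, numpy 2.4.6, scipy 1.17.1), and figures in matplotlib 3.10.9. Some values are not reported here.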

Additional observations from a re-analysis of the deposited data

How the results depend on the processing

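The median share of genes that lay below the 10 stress response genes was 71.2% among all genes listed. It was 39.7% among genes with a mean normalized count of at least 10, and 59.1% among genes with 1 mRNA accession, an alternative added after seeing the data. The median level of the 10 was 35.5 per 1000 bases, and 117 without division by length, under which 6 of the 10 changed place, by at most 4 places. No paired analysis was possible because the count columns carry no replicate number and no sample name. The alternatives planned for a test between the groups (another normalization, another filter and threshold, the replicate number as a block) were not run, since no such test could be made. Depth per library and the spread between mice are not known here, so the precision of each level is not known either.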

Other observations

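Marker genes of retinal cells with several accession rows were at levels far apart. Trpm1, the channel of ON bipolar cells, had 663 per 1000 bases with 2 rows, beside 223 for Grm6, which has 1. Nrl, the rod factor, had 36.1 per 1000 bases with 2 rows, and Gnat1 had 66356 with 1. Rlbp1, the retinoid-binding protein of Müller glia, had 0.650 with 2 rows, and Glul had 6252 with 1. Rbpms, of ganglion cells, had 2.74 with 3 rows, and Pecam1, of endothelium, had 0.137 with 2 rows.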
